A study of Mus musculus with 18 samples.

Results

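Collagen genes were followed through epithelial cells sorted from mouse skin by position and by division history. They were taken as every probe set of the array whose single gene symbol in the platform annotation has the form of a collagen chain (Col, a type number, the letter a and a chain number). The rule found 82 probe sets of 42 collagen genes among 34945 probe sets of 18193 genes with 1 symbol. It used names only, no measured value.

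The mice were crosses of K5tTA (FvB) and pTRE-H2B-GFP (CD1) animals, so that the keratin 5 promoter drove a histone-GFP label in keratin 5-expressing epithelial cells and in no other cell type by design. All groups carried both transgenes and received doxycycline at 1 g per kg of food, which stops synthesis of the label. The chase ran from postnatal day (PD) 18 to PD21 or from PD22 to PD25, and the label then falls 2-fold at each division. Sorting by CD34, α6-integrin and GFP gave non-bulge cells, bulge cells with 0 divisions (undivided) and bulge cells with 1 to 2 divisions (divided). The 6 groups were thus non-bulge, undivided bulge and divided bulge cells at PD21, and the same 3 fractions at PD25, with 3 arrays each. By the mouse numbers in the sample titles, each mouse, of 6 in all, gave all 3 fractions of its age. The main fit did not use this pairing, and a fit with the mouse as a paired block was an alternative. From each fraction 5 ng of RNA was amplified and hybridised to Affymetrix MOE 430 2.0 arrays.

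Collagens are proteins of 3 chains wound into a helix. Fibrillar types (I, III, V) build the fibrils of the dermis, type IV forms the network of basement membranes, type VII forms the fibrils that anchor that membrane to the dermis, and type XVII spans the keratinocyte membrane in hemidesmosomes. The bulge is the part of the hair follicle that houses its stem cells, and these cells rest on a basement membrane to which they contribute components.

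Levels are given as log2(signal + 16), so a value near 4 stands for almost no signal, and a difference of 1 is a doubling of signal + 16. A gene was tested when a probe set exceeded the median of its array, between 6.25 and 7.05 on this scale, in at least 3 of the 18 arrays. Of the 42 collagen genes, 25 were tested and 17 were not. The 17 untested genes were Col2a1, Col5a3, Col6a4, Col6a5, Col9a1, Col9a2, Col9a3, Col10a1, Col11a1, Col11a2, Col13a1, Col15a1, Col19a1, Col24a1, Col25a1, Col26a1 and Col27a1. Their median levels over the 18 arrays ran from 4.31 for Col24a1 to 5.97 for Col2a1, and their highest single value was 8.21, for Col27a1 in the divided bulge array of PD25 mouse 2. Among the tested genes, Col8a2, Col5a2, Col4a4, Col6a2 and Col14a1 exceeded the array median in 0 of the 6 non-bulge arrays. Such genes passed the filter through the groups in which they are high, so the counts that follow describe these genes and support nothing by themselves.

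All 7 keratinocyte markers exceeded the array median in every array. The sort marker Cd34 stood at 4.10, 4.10 and 5.36 in the PD21 non-bulge arrays of mice 1, 2 and 3. Undivided bulge arrays of the same mice had 13.12, 12.40 and 12.67, and divided ones had 9.19, 7.91 and 9.68. At PD25 the divided bulge arrays were at 11.74, 11.56 and 12.87, on both sides of the undivided range of 12.24 to 12.50. Cd34 was thus lower in divided than in undivided bulge cells of PD21, with a difference of -3.80 ± 0.46 (SE) on the log2 scale. The 18 arrays also fell into 2 sets of 9 by the signal of the bioB spike-in control. It was 1238.6 to 2039.1 in set A (mice 1 and 2 of PD21, mouse 1 of PD25) and 4101.3 to 6204.2 in set B (mouse 3 of PD21, mice 2 and 3 of PD25). All 3 fractions of a mouse lay in the same set, and the array of divided PD25 mouse 1 had the highest Gapdh 3′/5′ ratio, 11.6.

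**Figure D1:**
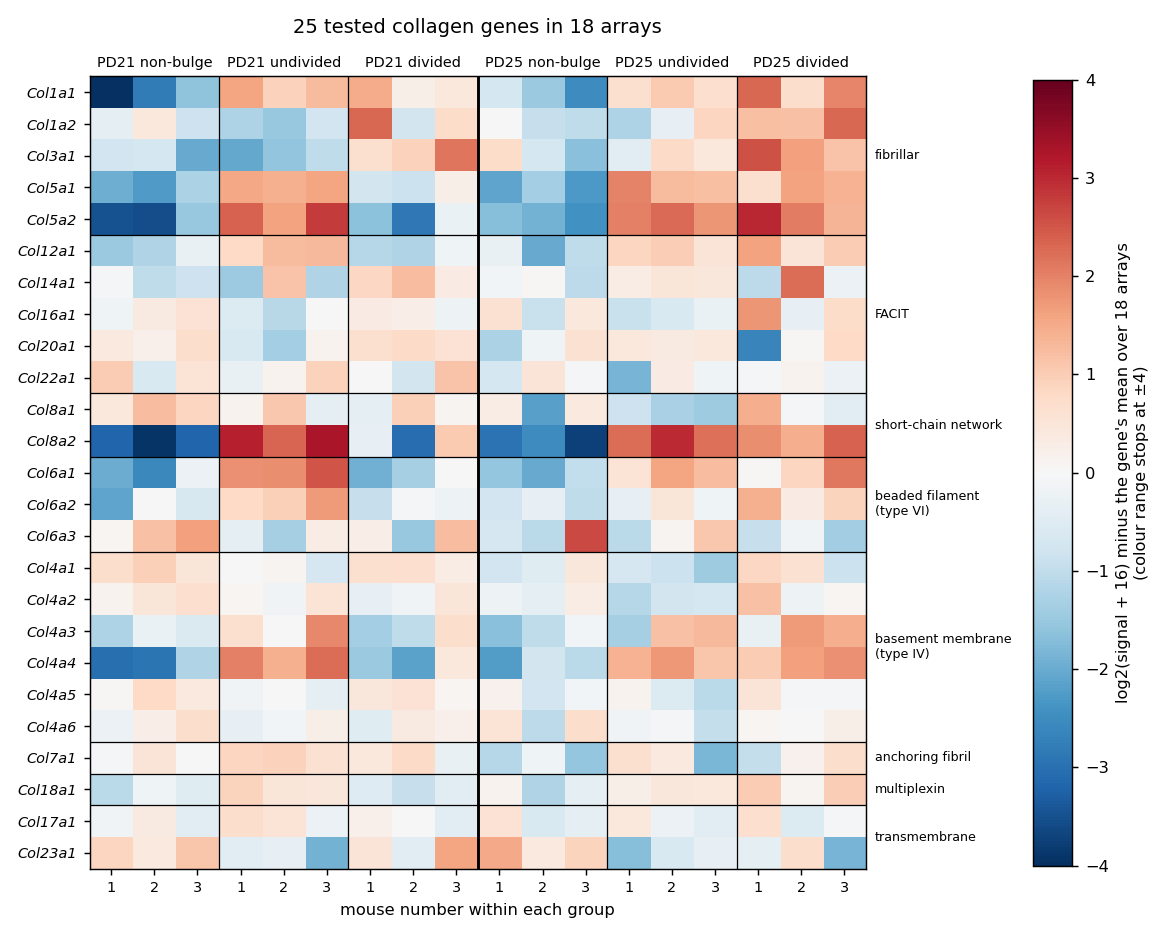
Levels of the 25 tested collagen genes in the 18 arrays, each as log2(signal + 16) minus the mean of its gene over all arrays. Columns are mice within groups and rows are grouped by collagen class. Col8a2, Col5a2, Col5a1, Col4a4 and Col6a1 are high in both undivided groups and in divided PD25 cells and low in non-bulge cells, while the rows of Col17a1, Col4a5 and Col4a6 are pale throughout.

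The first comparison asked which collagen genes mark undivided bulge cells. At PD21, 9 of the 25 tested collagen genes were higher in the undivided bulge than outside the bulge (6.12% of all 11569 genes tested were higher) and 0 were lower (4.93% of all genes). At PD25, 7 were higher (5.71% of all genes) and 0 lower (4.83%). The 7 genes of PD25, namely Col8a2, Col5a2, Col5a1, Col1a1, Col4a4, Col6a1 and Col12a1, were all among the 9 of PD21, which also held Col18a1 and Col6a2. The median log2 difference over the 25 genes was 0.14 at PD21 and 0.70 at PD25, against -0.05 and -0.02 over all genes, and 13 and 16 of the 25 had a positive difference.

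Col8a2, a chain of a short network-forming collagen known from the basement membrane of the corneal endothelium, was far higher in undivided bulge cells. In mice 1, 2 and 3 of PD21 it was at 5.64, 4.88 and 5.64 in non-bulge cells and at 11.92, 11.12 and 12.05 in undivided bulge cells. At PD25 it was at 5.85, 6.29 and 5.06 in non-bulge and at 11.03, 11.78 and 10.99 in undivided bulge cells. Every undivided bulge array lay above every non-bulge array by more than 4 log2 units. The fitted differences were 6.31 ± 0.64 at PD21 (SE, adjusted p = 2.12e-07) and 5.54 ± 0.64 at PD25. Because the non-bulge values are dim, the PD21 difference was 5.22 with a pseudocount of 64 and 6.99 with a pseudocount of 1, and with the latter Col5a2 had the larger difference. Its sister chain Col8a1 did not pass, at -0.56 ± 0.54 (adjusted p = 0.61) at PD21 and -0.69 ± 0.54 at PD25.

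Both chains of type V collagen, which nucleates and limits the width of type I fibrils, were higher in undivided bulge cells. Col5a2 was at 4.15, 4.09 and 6.14 in PD21 non-bulge cells and at 10, 9.25 and 10.44 in undivided bulge cells. It was at 5.95, 5.76 and 5.22 in PD25 non-bulge cells and at 9.67, 9.92 and 9.42 in undivided bulge cells. The difference was 5.11 ± 0.63 at PD21 and 4.03 ± 0.63 at PD25, and a pseudocount of 1 or 64 in place of 16 gave 7.13 or 3.65 at PD21. Col5a1, the partner chain, was at 7.34, 7.02 and 8.01 in PD21 non-bulge and at 10.83, 10.71 and 10.86 in undivided bulge cells. At PD25 its values were 7.17, 7.92 and 6.97 against 11.26, 10.55 and 10.48. These arrays did not overlap at either age, and the differences of 3.34 ± 0.37 and 3.41 ± 0.37 were alike in size. Col5a1 exceeded the array median in all 18 arrays, so its test did not depend on the filter. A dimmer Col5a1 probe set gave 1.99 ± 0.82 at PD21 and did not pass (adjusted p = 0.149), while another passed at 3.12 ± 0.65. The third type V chain, Col5a3, was not tested.

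Col4a4, a chain of the type IV network that joins those encoded by Col4a3 and Col4a5, was at 4.52, 4.60 and 6.31 in PD21 non-bulge cells and at 9.55, 8.95 and 9.77 in undivided bulge cells. The PD25 values were 5.28, 6.79 and 6.45 against 8.93, 9.27 and 8.63. No undivided bulge array overlapped a non-bulge array, and the differences were 4.28 ± 0.62 and 2.77 ± 0.62 (adjusted p = 0.00334 at PD25). Of its 2 other tested probe sets, one passed at both ages (2.47 ± 0.71 and 3.23 ± 0.71) and the other at PD25 only (1.89 ± 0.64, adjusted p = 0.0655, at PD21).

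Col6a1, a chain of the beaded microfilaments of type VI collagen, was at 6.65, 6.06 and 8.41 in PD21 non-bulge and at 10.45, 10.48 and 11.14 in undivided bulge cells. At PD25 it was at 7.09, 6.62 and 7.65 against 9.19, 10.20 and 9.88. Again the arrays did not overlap, with differences of 3.65 ± 0.58 and 2.64 ± 0.58. Its partner chain Col6a2 passed at PD21 (2.05 ± 0.57, adjusted p = 0.0194), where it was at 4.28, 6.38 and 5.75 against 7.17, 7.33 and 8.07. That call was lost without PD21 non-bulge mouse 1 or undivided mouse 3 (adjusted p up to 0.154), while a second Col6a2 probe set, outside the 1 per gene used in the counts, passed at both ages with 3.22 ± 0.65 and 2.51 ± 0.65. Col6a3, the long chain of the same microfilaments, gave -1.45 ± 0.85 at PD21 and -0.27 ± 0.85 at PD25 and did not pass.

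Col12a1, which lies on the surface of type I fibrils, and Col18a1, a basement membrane collagen that carries the endostatin fragment, exceeded the array median in all 18 arrays. Col12a1 was at 8.24, 8.52 and 9.44 in PD21 non-bulge cells and at 10.53, 10.99 and 11.04 in undivided bulge cells, a difference of 2.12 ± 0.40. At PD25 the difference was 1.90 ± 0.40, and in neither age did the arrays overlap. Of its dimmer probe sets, 2 did not pass at either age, and 1 of these gave -0.63 ± 0.53 at PD25. Col18a1 rose from 9.51, 10.43 and 10.13 to 11.50, 11.08 and 11.05 at PD21, by 1.19 ± 0.31 (adjusted p = 0.0119). The call was lost without non-bulge mouse 1 or undivided mouse 1 of PD21 (adjusted p up to 0.0975). At PD25 this probe set missed the threshold (0.85 ± 0.31, adjusted p = 0.0924), although it passed with the mouse as a paired block (adjusted p = 0.0474), and a second Col18a1 probe set passed at both ages with 1.31 ± 0.32 and 1.27 ± 0.32.

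Col1a1, the major chain of type I collagen, was at 4.47, 5.79 and 6.95 in PD21 non-bulge cells and at 10.14, 9.51 and 9.83 in undivided bulge cells. At PD25 the values were 7.88, 7.10 and 6.07 against 9.20, 9.63 and 9.24. Arrays of the fractions did not overlap, with differences of 4.09 ± 0.55 and 2.34 ± 0.55 (adjusted p = 0.0055 at PD25). A second probe set gave 3.00 ± 0.50 and 2.08 ± 0.50. Col1a2, whose chain joins that of Col1a1 in type I collagen, did not pass in undivided bulge cells at either age. It was at 6.41, 7.23 and 5.98 in PD21 non-bulge and at 5.56, 5.29 and 6.03 in undivided bulge cells, a difference of -0.91 ± 0.68 (adjusted p = 0.479). Col3a1, the single chain of type III collagen, was likewise dim in both at PD21, at -0.38 ± 0.65 (adjusted p = 0.795). In PD25 non-bulge against undivided bulge cells, Col1a2 was at 6.78, 5.87 and 5.80 against 5.58, 6.49 and 7.68. Col3a1 was at 7.11, 5.69 and 4.71 against 5.94, 7.14 and 6.82, and it did not pass there either.

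Within array set A the PD21 differences of the 9 genes ran from 1.32 (Col18a1) to 6.27 (Col8a2), and within set B from 0.92 (Col18a1) to 6.41 (Col8a2), all in the pooled direction. In set A 8 of the 9 passed, and Col6a2 did not (adjusted p = 0.191). In set B, with 1 mouse per fraction at PD21, 6 of the 9 passed, and Col12a1, Col18a1 and Col6a2 did not. At PD25 the 7 genes had differences of 1.16 (Col12a1) to 5.19 (Col8a2) in set A, again with 1 mouse per fraction, where Col1a1 (1.31), Col12a1 and Col6a1 did not pass (adjusted p = 0.5, 0.268 and 0.18), and of 2.27 (Col12a1) to 5.71 (Col8a2) in set B.

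**Figure D2:**
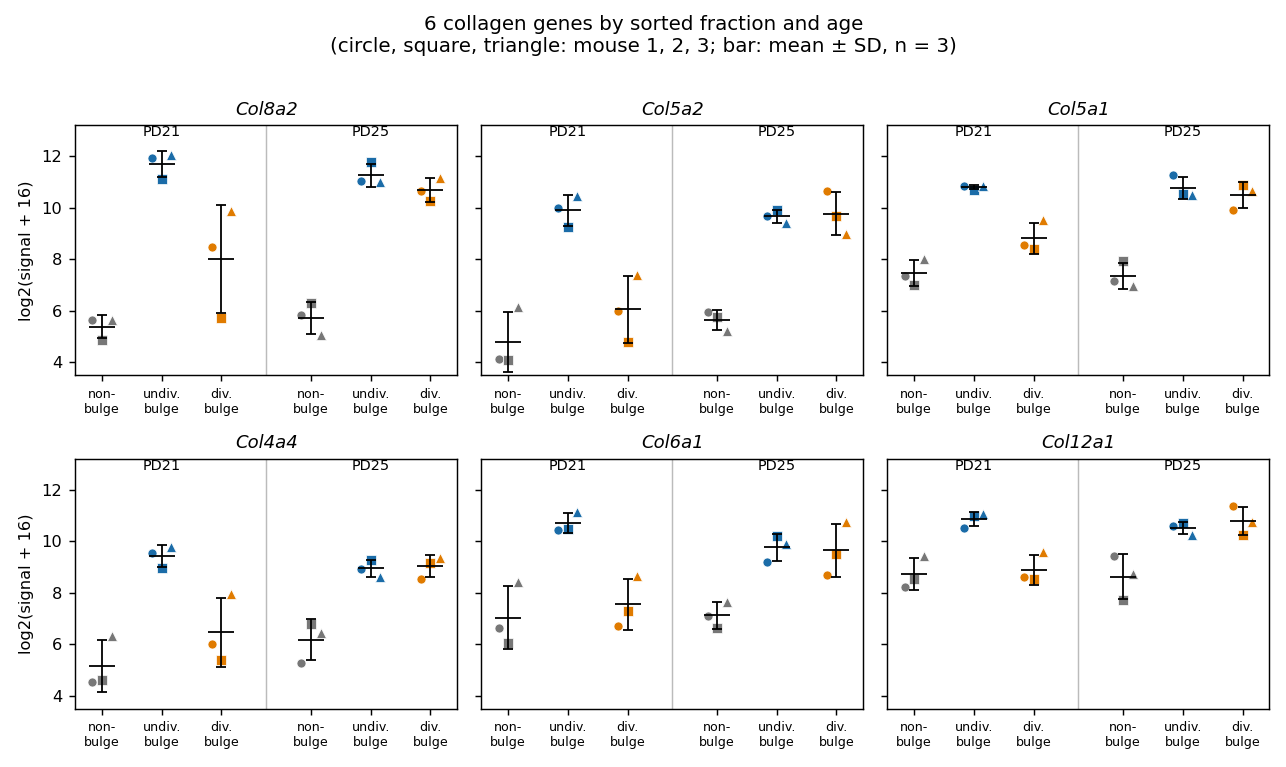
Levels of Col8a2, Col5a2, Col5a1, Col4a4, Col6a1 and Col12a1 as log2(signal + 16) in each of the 6 groups, with 1 symbol per mouse and the mean ± SD (n = 3). Undivided bulge cells of both ages and divided bulge cells of PD25 lie at similar heights, and divided bulge cells of PD21 lie lower. Divided PD21 cells spread most for Col8a2 (5.74 to 9.86), Col5a2 and Col4a4. For Col6a1 and Col12a1 divided PD25 cells spread at least as much.

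The upstream sequences of 4 genes are shown because 3 of them (Col8a2, Col5a1 and Col6a1) moved together across the groups while Col17a1, brightly detected in every array, did not pass any of the 11 tests without the mouse as a block. They are the 250 bases before the RefSeq transcription start on the GRCm38.p6 assembly, cut for Col5a1 to the 206 bases that lie before its earliest annotated start, 5′ to 3′ on the strand of the gene. Capitals mark 4 motifs found on either strand: the CCAAT box (CCAAT), the GC box (GGGCGG), the TATA box (TATAAA) and the Runx core (TGTGGT), none of which contains another.
Col8a2, chr4:126286544-126286793 (+ strand): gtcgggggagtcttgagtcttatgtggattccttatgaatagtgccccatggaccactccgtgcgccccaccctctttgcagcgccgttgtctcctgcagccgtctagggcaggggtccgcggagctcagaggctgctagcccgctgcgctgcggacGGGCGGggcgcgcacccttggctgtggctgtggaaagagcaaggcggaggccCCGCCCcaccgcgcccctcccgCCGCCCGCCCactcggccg
Col5a1, chr2:27886175-27886380 (+ strand): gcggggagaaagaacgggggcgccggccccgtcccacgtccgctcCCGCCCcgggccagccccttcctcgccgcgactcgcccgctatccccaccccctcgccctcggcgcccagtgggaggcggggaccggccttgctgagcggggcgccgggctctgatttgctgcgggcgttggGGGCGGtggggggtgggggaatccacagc
Col6a1, chr10:76726045-76726294 (- strand): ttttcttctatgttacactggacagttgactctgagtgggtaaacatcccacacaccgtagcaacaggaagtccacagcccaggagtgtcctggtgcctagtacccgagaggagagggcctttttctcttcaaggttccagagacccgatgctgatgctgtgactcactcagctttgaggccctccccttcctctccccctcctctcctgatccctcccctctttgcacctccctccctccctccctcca
Col17a1, chr19:47692043-47692292 (- strand): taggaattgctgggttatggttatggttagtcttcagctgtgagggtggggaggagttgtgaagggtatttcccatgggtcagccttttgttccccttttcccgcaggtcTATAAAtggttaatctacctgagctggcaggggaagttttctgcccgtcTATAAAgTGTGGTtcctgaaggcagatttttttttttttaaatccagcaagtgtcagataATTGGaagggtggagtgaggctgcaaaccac
The Col8a2 window holds 4 GC boxes, of which some share bases, and is 70% G and C. The Col5a1 window holds 2 GC boxes and is 77.7% G and C. The Col6a1 window holds none of the 4 motifs, so no motif of the search is common to the 3 genes. The Col17a1 window is 46% G and C and holds 2 TATA boxes, 1 CCAAT box and 1 Runx core. Of 32536 distinct windows of 250 bases in the RefSeq table, 33% hold a GC box, 33.8% a CCAAT box, 12.3% a TATA box and 14% a Runx core. A window was present for 33 of the 42 collagen genes, with 36 windows in all. A gene was counted when any of its windows held the motif, whereas the percentages above count windows. Of the 33 genes, 20 held a GC box, 13 a CCAAT box, 5 a TATA box and 3 a Runx core. These are matches of letters, not measured binding.

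The next comparison set divided against undivided bulge cells of the same age. In the PD21 chase 7 of the 25 collagen genes were lower in divided than in undivided bulge cells (4.37% of all genes were lower). In the same comparison 1 was higher (3.91% of all genes). The 7 were Col5a2, Col8a2, Col6a1, Col4a4, Col5a1, Col12a1 and Col18a1, and the 1 was Col3a1. In the PD25 chase 0 of 25 collagen genes passed in either direction, as did 0 of all 11569 genes (0%) with limma. At an unadjusted p under 0.05 there were 6 collagen genes and 635 genes in all.

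Col5a2 was at 6.00, 4.79 and 7.39 in the divided PD21 arrays of mice 1, 2 and 3, below the lowest undivided value of 9.25, and the difference was -3.84 ± 0.63. Col8a2 was at 8.47, 5.74 and 9.86, below the lowest undivided value of 11.12, with a difference of -3.67 ± 0.64. Col6a1 was at 6.72, 7.29 and 8.64 (-3.15 ± 0.58) and Col4a4 at 6.03, 5.39 and 7.96 (-2.96 ± 0.62), each below every undivided array. Of the 2 other Col4a4 probe sets, 1 was at 6.39, 5.74 and 7.35, below every undivided array. The other was at 5.92, 4.19 and 7.88 and overlapped its undivided values of 7.8, 8.55 and 8.88. Mouse 3 was the highest of the divided arrays for each of these genes. Col5a1 was at 8.54, 8.41 and 9.51 and Col12a1 at 8.61, 8.52 and 9.57, with differences of -1.98 ± 0.37 and -1.95 ± 0.40. Col18a1 was at 10.09, 9.69 and 10.17 and was lower by 1.23 on the log2 scale (SE 0.31). That call was lost without undivided mouse 1 or divided mouse 2 (adjusted p up to 0.0764). In array set A, which holds mice 1 and 2, the 7 differences ran from -1.40 (Col18a1) to -4.42 (Col8a2) and all passed. In set B, which holds mouse 3, they ran from -0.89 (Col18a1) to -3.05 (Col5a2), the same direction, and of the 8 pooled calls that of Col5a2 alone passed there.

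These differences went together with that of Cd34, one of the sort markers, which was lower by 3.80 in the same comparison. In bulk samples, fewer cells of a type and less RNA per cell cannot be told apart, and a difference between the fractions in the share of CD34-rich cells was not tested.

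Set against non-bulge cells, divided bulge cells of PD21 differed in 1 of the 25 collagen genes (0.182% of all genes were higher, 0% lower). That gene was Col1a1, at 10.05, 8.81 and 9.0 in divided bulge cells, above every non-bulge array, with a difference between the group means of 3.55 ± 0.55 (adjusted p = 0.00358). Of the 9 genes that were higher in undivided PD21 cells, Col1a1 and Col6a2 did not pass between divided and undivided cells. Col1a1 gave -0.54 ± 0.55 (adjusted p = 0.675). Col6a2 was at 5.47, 6.31 and 6.17 in divided cells, below every undivided array, and gave -1.54 ± 0.57 (adjusted p = 0.107). The second Col6a2 probe set was at 8.5, 5.83 and 8.95 in undivided and at 4.64, 5.13 and 4.73 in divided cells. These arrays did not overlap. A second Col1a1 probe set was at 8.84, 7.41 and 7.99 in the divided arrays, below every undivided array (-1.12 ± 0.50, adjusted p = 0.226), and its difference from non-bulge cells, 1.88 ± 0.50, did not pass (adjusted p = 0.307). In a fit of these 2 groups alone, with fewer degrees of freedom, Col1a1 did not pass either, and 0 collagen genes did. With the mouse as a paired block 2 collagen genes passed, the second being Col8a2 (2.64 ± 0.49, adjusted p = 0.0112). Col1a1 and Col8a2 also passed without divided mouse 2 of PD21.

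Col3a1 and Col1a2 took the other course. Col3a1 was at 4.34, 4.82 and 5.38 in undivided and at 7.03, 7.31 and 8.53 in divided bulge cells of PD21, with no overlap and a difference of 2.77 ± 0.65 (adjusted p = 0.00643). Col1a2 was at 5.56, 5.29 and 6.03 against 9.09, 6.06 and 7.54. Every divided array was above every undivided one, but the 3 divided values spread over 3 log2 units, and the difference of 1.93 ± 0.68 did not pass (adjusted p = 0.0825), though it did with the mouse as a paired block (adjusted p = 0.0498). Both genes were below the array median in all 3 undivided PD21 arrays. A second, untested Col3a1 probe set was at 5.47, 4.59 and 4.69 in the divided arrays, and a second Col1a2 probe set gave 0.53 ± 0.70.

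**Figure D3:**
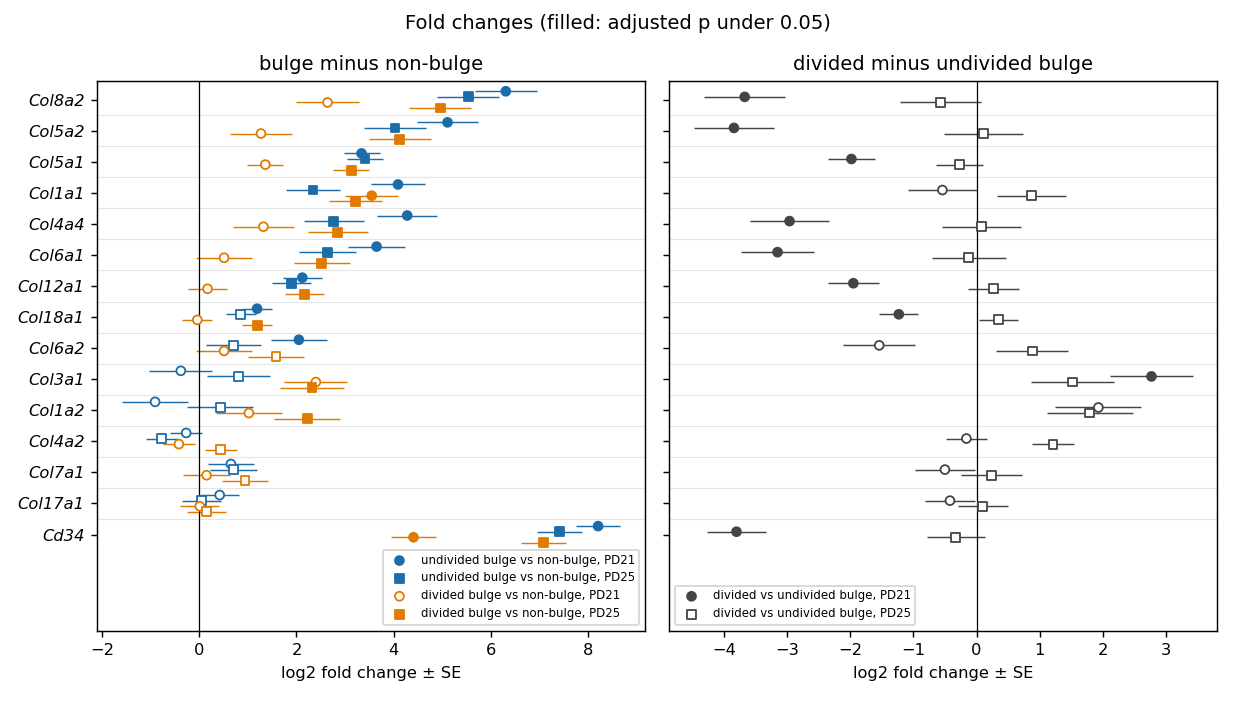
Fitted log2 fold changes ± SE of 14 collagen genes and Cd34, for each bulge fraction against non-bulge cells (left) and for divided against undivided bulge cells (right). Filled symbols passed at an adjusted p under 0.05. Divided PD21 cells (open orange circles) lie near 0 for Col6a1, Col12a1 and Col18a1. In the right panel the filled PD21 symbols of 7 collagen genes and Cd34 lie below 0 and that of Col3a1 above. Open PD21 symbols, among them those of Col6a2 and Col1a1, also lie below 0, and that of Col1a2 lies above.

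At PD25 the divided bulge cells stood above non-bulge cells in most of these genes. Against non-bulge cells 10 of the 25 collagen genes were higher (5.62% of all genes) and 0 were lower (3.25% of all genes). Col8a2 was at 10.66, 10.26 and 11.16 in divided PD25 cells (4.96 ± 0.64 above non-bulge), Col5a2 at 10.66, 9.68 and 8.99 (4.13 ± 0.63), and Col5a1 at 9.92, 10.88 and 10.66 (3.13 ± 0.37). Col1a1 was at 10.86, 9.29 and 10.53 (3.21 ± 0.55), Col4a4 at 8.54, 9.16 and 9.36 (2.85 ± 0.62) and Col12a1 at 11.36, 10.26 and 10.76 (2.17 ± 0.40). For each of these 6 genes no divided array overlapped a non-bulge array. Col6a1 passed with 2.52 ± 0.58 but not without divided mouse 3 (adjusted p = 0.0603). Col18a1 passed with 1.19 ± 0.31 although its arrays overlapped, and not without non-bulge mouse 2, divided mouse 1 or divided mouse 3 (adjusted p up to 0.122). Col6a2 was not among the 10. Its second probe set, however, was at 8.67, 7.47 and 7.34 in divided cells against 4.43, 4.52 and 4.61 in non-bulge cells.

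Here Col3a1 and Col1a2 also passed against non-bulge cells. Col3a1 was at 8.93, 8.02 and 7.52 in divided PD25 cells against 7.11, 5.69 and 4.71 (2.32 ± 0.65, adjusted p = 0.0227), and Col1a2 at 8.02, 7.99 and 9.11 against 6.78, 5.87 and 5.80 (2.22 ± 0.68, adjusted p = 0.0394). The arrays did not overlap, but either call depended on single arrays. That of Col3a1 was lost without non-bulge mouse 2 or 3 or divided mouse 1 or 2 (adjusted p up to 0.159). That of Col1a2 was lost in 5 of 6 such fits, all but the one without non-bulge mouse 1 (adjusted p up to 0.197). Within array set A, with 1 mouse per fraction, the differences of the 10 genes ran from 0.89 (Col18a1) to 4.82 (Col8a2). Within set B they ran from 1.35 (Col18a1) to 5.04 (Col8a2), in the same direction.

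Divided against undivided cells of PD25 gave differences between -0.57 ± 0.64 (Col8a2) and 0.35 ± 0.31 (Col18a1) for the 7 genes that were lower at PD21. Without divided mouse 3 of PD25, 1 collagen gene passed (Col4a1), and within array set A 1 did (Col16a1). The values of Cd34 in the same comparison were -0.33 ± 0.46 (adjusted p = 0.999).

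**Figure D4:**
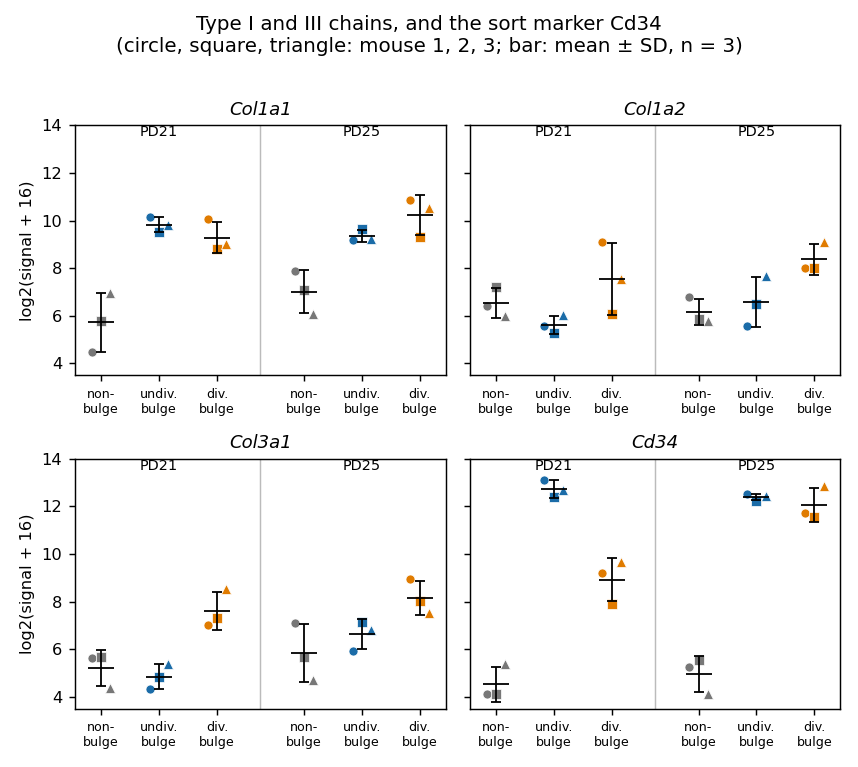
Levels of the type I chains Col1a1 and Col1a2, the type III chain Col3a1 and the sort marker Cd34 as log2(signal + 16) in each group, 1 symbol per mouse, with the mean ± SD (n = 3). Col3a1 is highest in the divided fractions (7.03 to 8.93), Col1a1 is high in both bulge fractions of both ages, and Cd34 in divided PD21 cells (7.91 to 9.68) lies between the non-bulge and undivided values.

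Ages were then compared within a fraction. Divided bulge cells of PD25 exceeded those of PD21 in 7 of the 25 collagen genes (4.37% of all genes were higher) and were lower in 0 (3.47% of all genes). These comparisons share the divided PD21 arrays with those above and are not independent of them. The differences were 3.72 ± 0.63 for Col5a2, 2.67 ± 0.64 for Col8a2, 2.56 ± 0.62 for Col4a4, 2.09 ± 0.58 for Col6a1, 1.89 ± 0.40 for Col12a1, 1.67 ± 0.37 for Col5a1 and 1.33 ± 0.31 for Col18a1. Col1a1 did not pass (0.94 ± 0.55, adjusted p = 0.417), although its second probe set did, at 1.66 ± 0.50 (adjusted p = 0.0476). The second Col6a2 probe set did not overlap between the ages, at 4.64 to 5.13 at PD21 and 7.34 to 8.67 at PD25. The 2 other Col4a4 probe sets did overlap. For 1 of them the PD21 and PD25 ranges were 5.74 to 7.35 and 6.12 to 8.1. For the other they were 4.19 to 7.88 and 6.83 to 8.62. Without divided mouse 2 of PD21, the array with the lowest Col8a2, 3 collagen genes passed, and without divided mouse 3 of PD25 also 3, in both cases Col5a2, Col12a1 and Col5a1. In array set A, with 1 divided mouse at PD25, the 7 differences ran from 1.44 (Col5a1) to 5.27 (Col5a2). In set B, with 1 divided mouse at PD21, they were smaller for each gene, from 0.85 (Col8a2) to 1.94 (Col5a2). Cd34 was higher at PD25 by 3.13 ± 0.46 in the same cells.

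In undivided bulge cells 0 collagen genes differed between the ages (0.0951% of all genes passed), and in non-bulge cells 0 did (0.0432%), with 5 collagen genes at an unadjusted p under 0.05 in each, against 929 and 511 of all 11569 genes. Mice of the 2 ages were different animals with different chase windows, so age and chase cannot be told apart.

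A direct test asked whether the division effect (divided minus undivided) differed between the chases. Col5a2 passed, with a division effect 3.94 ± 0.90 higher at PD25 than at PD21 (adjusted p = 0.0264), and it was the 1 collagen gene among the 0.813% of all genes that passed in that direction. In the opposite direction 0 collagen genes passed (0.372% of all genes). The effect of Col5a2 was -3.84 ± 0.63 at PD21 and 0.11 ± 0.63 at PD25. With the mouse as a paired block, calls over all genes in both directions went from 137 to 506 of 11569, and 7 collagen genes passed: Col5a2 (SE 0.62, adjusted p = 0.00107), Col6a1 (3.03 ± 0.58), Col8a2 (3.10 ± 0.70), Col4a4 (3.04 ± 0.65), Col12a1 (2.22 ± 0.44), Col18a1 (1.58 ± 0.40) and Col5a1 (1.71 ± 0.48, adjusted p = 0.0444). Without the block the 6 others had adjusted p-values between 0.0516 (Col12a1) and 0.105 (Col5a1). The Col5a2 call was lost in 8 of the 12 fits that left out 1 array (adjusted p up to 0.0894), namely without mouse 1 or 3 of the undivided PD21 group, mouse 1 or 2 of the divided PD21 group, any of the undivided PD25 mice or mouse 1 of the divided PD25 group. Without divided PD21 mouse 3, 6 collagen genes passed, and without divided PD25 mouse 2, 3 did. Within array set A the Col5a2 difference did not pass, nor did it in set B, where each group had 1 or 2 mice. For Cd34 the same difference was 3.47 ± 0.65 (adjusted p = 0.00879). For the difference between undivided bulge and non-bulge cells, the test between the ages called 0 of the 25 collagen genes, and 0 of the 11569 genes (0%), at the adjusted threshold with limma. At an unadjusted p under 0.05, 1 collagen gene and 446 genes in all passed.

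The type IV genes lie in pairs that share a start region, and the pairs are given side by side. In the RefSeq table the starts of Col4a1 and Col4a2 are 21 bases apart on opposite strands, and those of Col4a5 and Col4a6 are 1343 bases apart. Col4a1 and Col4a2 encode the chains found in almost every basement membrane. With all arrays neither passed in any of the 11 comparisons: in undivided bulge against non-bulge cells Col4a1 gave -0.88 ± 0.36 (adjusted p = 0.124) at PD21 and -0.73 ± 0.36 at PD25, and Col4a2 gave -0.27 ± 0.33 and -0.77 ± 0.33. Divided minus undivided at PD25 was 1.18 ± 0.36 for Col4a1 and 1.21 ± 0.33 for Col4a2, with adjusted p-values of 0.442 and 0.338.

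Col4a3, beside Col4a4, was at 5.55, 6.52 and 6.20 in PD21 non-bulge and at 7.43, 6.79 and 8.69 in undivided bulge cells. Those arrays did not overlap, yet the difference of 1.54 ± 0.75 did not pass (adjusted p = 0.222). At PD25 the undivided values of Col4a3 were 5.46, 7.94 and 8.06, spread over more than 2 log2 units, and the difference was 1.30 ± 0.75. With the mouse as a paired block Col4a3 passed at PD21 (adjusted p = 0.0479), and in divided PD25 cells against non-bulge cells (1.88, adjusted p = 0.0193). Col4a5 and Col4a6 gave differences of -0.58 ± 0.29 and -0.31 ± 0.37 in undivided PD21 bulge cells and of -0.26 ± 0.29 and -0.45 ± 0.37 at PD25, and neither passed in any comparison. Of the 6 type IV genes, then, 1 passed in the undivided bulge at each age.

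**Figure D5:**
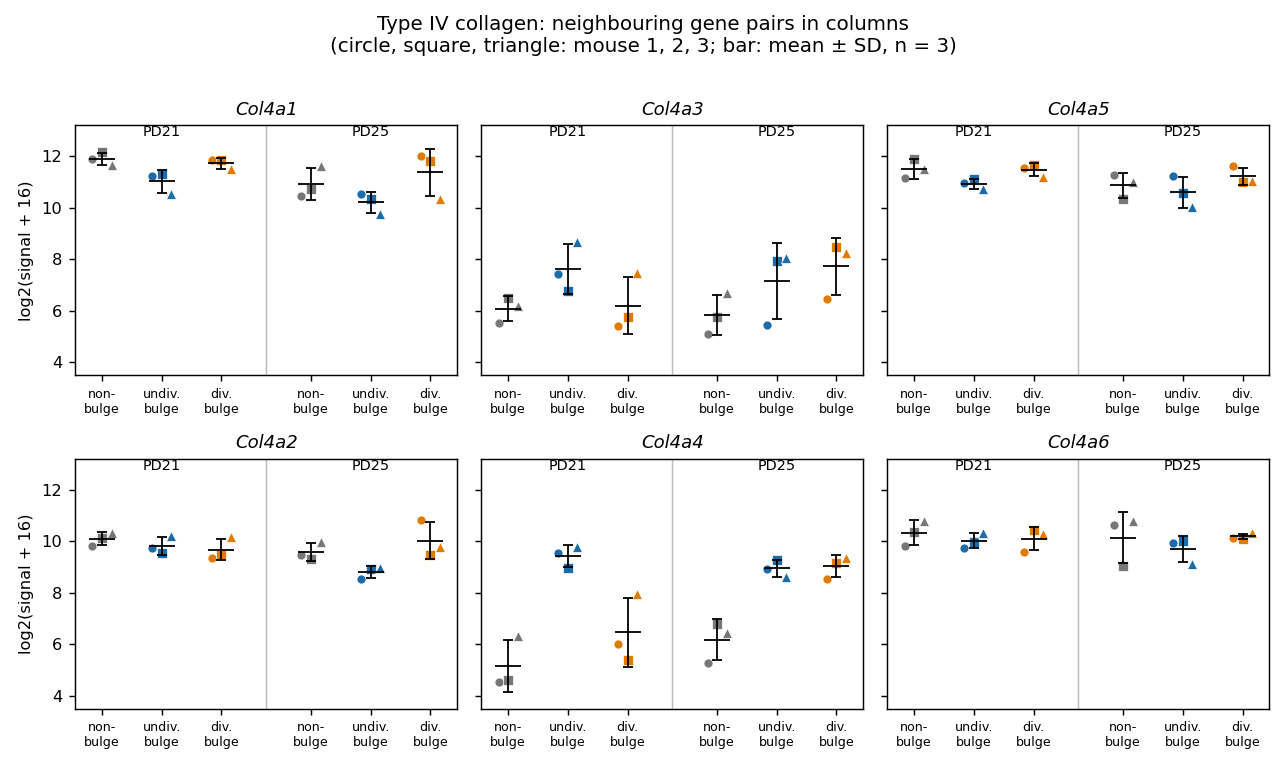
Levels of the 6 type IV collagen genes as log2(signal + 16) by group, 1 symbol per mouse, with the mean ± SD (n = 3), neighbouring genes one above the other. Col4a4 separates undivided bulge (8.63 to 9.77) from non-bulge cells (4.52 to 6.79), Col4a3 varies in the same groups with wider spread, and Col4a6 overlaps between fractions at both ages. Undivided arrays of Col4a1 and Col4a5 at PD21, and of Col4a2 at PD25, lie below all arrays of both other fractions of that age.

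The collagens of the attachment between keratinocyte and dermis were bright in each fraction, and neither passed in any of the 11 comparisons in the fit without the mouse as a block. Col17a1, the transmembrane collagen of hemidesmosomes, had its lowest value, 13.64, in a PD25 non-bulge array and its highest, 14.93, in a PD21 undivided array. Its undivided minus non-bulge differences were 0.42 ± 0.40 at PD21 (adjusted p = 0.599) and 0.05 ± 0.40 at PD25. The first of them passed with the mouse as a paired block (SE 0.14, adjusted p = 0.0462). Col7a1, of anchoring fibrils, was at 11.43, 12.00 and 11.51 in PD21 non-bulge and at 12.35, 12.43 and 12.10 in undivided cells (0.65 ± 0.48, adjusted p = 0.479). At PD25 it ranged from 9.68 to 12.15 within the undivided group.

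Of the other tested genes, Col8a1, Col16a1, Col14a1, Col20a1, Col22a1 and Col23a1 passed in no comparison. Col23a1, a transmembrane collagen, had the most negative values among them in the undivided bulge, at -1.66 ± 0.68 (adjusted p = 0.128) at PD21 and -1.82 ± 0.68 (adjusted p = 0.099) at PD25. Col16a1, which associates with fibrils and with basement membrane zones, was well detected and gave -0.82 ± 0.42 and -0.63 ± 0.42. By class, undivided PD21 bulge cells had higher levels in 3 of 5 tested fibrillar genes, 1 of 6 type IV genes, 1 of 2 short-chain genes, 2 of 3 type VI genes and 1 of 5 genes of fibril-associated collagens. The 1 tested multiplexin gene also passed, and 0 of 2 transmembrane genes and 0 of 1 anchoring fibril genes did. Of all genes tested, 6.12% were higher in that comparison. At PD25 (5.71% of all genes higher) type VI had 1 of 3 and the multiplexin 0 of 1, and the other classes had the same counts.

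Genes that build, process and bind collagen were read as 4 lists. Of 16 tested genes for chain modification and folding, 4 were higher in undivided PD21 bulge cells and 0 lower (6.12% and 4.93% of all genes), with a list median of 0.35 against -0.05 over all genes. At PD25 2 of the 16 were higher and 0 lower (5.71% and 4.83% of all genes), with a list median of 0 against -0.02. Serpinh1, the chaperone of procollagen in the endoplasmic reticulum, was at 11.09, 11.15 and 11.20 in PD21 non-bulge arrays. It was at 12.34, 11.89 and 12.66 in the undivided and at 10.76, 10.78 and 11.26 in the divided bulge. Its undivided and divided arrays did not overlap. The differences were 1.15 ± 0.28 for undivided against non-bulge and -1.36 ± 0.28 for divided against undivided cells. In divided PD25 cells it stood 1.34 ± 0.28 above non-bulge cells, and its division effect differed between the chases by 1.67 ± 0.39 (adjusted p = 0.0339). P3h4 (1.56 ± 0.29), Plod3 (1.74 ± 0.39), a lysyl hydroxylase, and Fkbp14 (2.28 ± 0.63), a prolyl isomerase, were the others that passed at PD21.

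Of 4 tested genes for procollagen processing and crosslinking, 1 was higher in undivided PD21 cells (6.12% of all genes). It was Tll1, a proteinase of the family that trims procollagen ends, at 5.16, 4.47 and 5.04 in non-bulge and 9.22, 9.70 and 10.20 in undivided cells (4.82 ± 0.61). In divided PD21 cells Tll1 was at 5.68, 5.24 and 7.28, with a division difference of -3.64 ± 0.61, and in divided PD25 cells at 8.93, 9.03 and 8.24. Pxdn, a peroxidase that crosslinks type IV collagen, passed only in comparisons with divided PD25 cells, at 2.21 ± 0.60 above non-bulge and 2.28 ± 0.60 above divided PD21 cells.

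Among 6 tested collagen receptors, 1 was higher at PD21 (6.12% of all genes) and 2 at PD25 (5.71%) in undivided bulge cells. Itga1, the alpha subunit of an integrin that binds collagen, was at 5.81, 5.24 and 5.18 in PD21 non-bulge arrays. It was at 8.98, 8.06 and 8.79 in the undivided and at 5.60, 5.27 and 6.66 in the divided bulge. The differences were 3.20 ± 0.52 for undivided against non-bulge and -2.77 ± 0.52 for divided against undivided cells. The division effect of Itga1 differed between the chases by 3.11 ± 0.74 (adjusted p = 0.0356). Itga2 passed at PD25 (2.03 ± 0.51). Of 7 tested hemidesmosome partners, Itgb4 (1.18 ± 0.26), Cd151 (0.89 ± 0.26) and Lamb3 (0.88 ± 0.24) were higher in undivided PD21 bulge cells, 3 of 7 against 6.12% of all genes. At PD25 0 of these 7 genes were higher and 0 lower (5.71% and 4.83% of all genes), with a list median of 0.03.

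Because fibroblasts are the main source of several of these collagens in skin, a list of 12 fibroblast markers without collagens was read in the same arrays. Of these, 6 exceeded the array median in no array, among them Pdgfra, which was never above 6.12, and 5 were tested. Their summed signal ranged from 5110 to 7104 in PD21 non-bulge, 21951 to 57123 in undivided and 5824 to 12289 in divided cells, and from 4888 to 7565, 22199 to 42060 and 13662 to 26452 in the same fractions of PD25. Most of that range came from S100a4, at 9.86, 10.69 and 10.14 in PD21 non-bulge and 15.61, 14.73 and 13.91 in undivided cells. Without it the sum was 3469 to 6189, 3854 to 6976 and 3455 to 6784 in the 3 fractions of PD21, ranges that overlap. That sum joined members that moved in different ways. Thy1 was at 11.44, 11.46 and 11.99 in PD21 non-bulge and at 11.36, 9.96 and 11.04 in undivided cells. Vim was at 11.25, 6.85 and 7.30 in PD21 non-bulge and at 9.59, 9.13 and 10.46 in undivided cells. The members that passed in undivided PD21 cells were S100a4 (4.52 ± 0.43) and Fbln1 (2.45 ± 0.39), while Thy1 was lower in undivided PD25 cells (-1.51 ± 0.34). The endothelial list had 0 tested genes of 6 and a summed signal of at most 245. The immune list summed to 332 to 2812 in PD21 non-bulge, 747 to 1021 in undivided and 698 to 1282 in divided cells. In PD21 non-bulge mice 1, 2 and 3, Cd74 was at 10.08, 6.77 and 6.77 and Laptm5 at 10.18, 7.68 and 7.35. Lyz2 of that list was highest in mouse 2 (7.27) instead. Mitf, of the melanocyte list, was higher in undivided PD21 bulge cells by 2.27 ± 0.47, with 1 of 4 tested genes of that list passing (6.12% of all genes). The part of other cells in the collagen differences was not tested.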

How the data were processed

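Sorted skin cells of 6 mice gave 18 arrays in 6 groups of 3. The table deposited by the authors holds one linear intensity signal per probe set and array, from GCOS per the submitters' processing notes (version not given in the sources used here). Each array had a 2% trimmed mean of 500, so the deposited signals were already scaled, and no further normalisation was applied.

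Signals were transformed to log2(signal + 16). Probe sets above the median of their array in at least 3 arrays were kept, and each gene was represented by its brightest probe set on average, for 11569 genes in all. The 932 probe sets with several symbols, none of them naming a collagen, were left out. The 6 group means were fitted with limma 3.58.1 in R 4.3.3 (lmFit, eBayes with trend, 12 residual and 11.2 prior degrees of freedom), and 11 contrasts were tested, with Benjamini-Hochberg adjustment over all genes of a contrast and a threshold of 0.05. The fit was tested on simulated data. Errors are standard errors of the fit unless called SD, and the number of mice limits the precision.

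Named genes were the markers and basement membrane, fibrillar and type VI chains of a fixed set, every collagen gene that passed, and up to 6 members that passed of each list in a comparison. The collagen genes, classes and lists were chosen with earlier results of these data known. Titles give the same mouse numbers to the 3 fractions of an age. Deviations from group means correlated at 0.075 to 0.462 between fractions of a mouse and at -0.260 to 0.128 between mice, and a fit with the mouse as a replicate block was an alternative. Other alternatives changed the pseudocount, filter, scaling, probe set choice, variance model and arrays. The labels do not name array runs, so the 2 array sets rest on the spike-in signal alone. Promoters are RefSeq sequences of GRCm38.p6.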

Additional observations from a re-analysis of the deposited data

Results flagged for a closer look

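The division effect of Col5a2 differed between the chases, by 3.94 ± 0.90 (SE, adjusted p = 0.0264, limma), with divided below undivided cells in 3 of 3 mice at PD21 and in 2 of 3 at PD25. A test of the difference itself marked it. At PD25 the divided minus undivided difference was 0.11 ± 0.63. The call was lost in 8 of the 12 fits that left out 1 array. The values of the 12 arrays are given in the report, and Cd34 differed in the same way by 3.47 ± 0.65.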

How the results depend on the processing

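For the 43 pairs of a collagen gene and a comparison in which it passed, refits gave 823 readings. Each refit covered all its genes at once, so the readings are not independent. Of the readings, 742 kept direction and call, 81 kept direction and lost the call, and 0 reversed. The 14 pairs that passed in every refit include Col8a2, Col5a1 and Col5a2 in undivided bulge cells of both ages. In undivided PD25 cells against non-bulge cells array weights gave 12 collagen genes in place of 7. In divided PD21 cells against non-bulge cells the count of 1 became 2 with the mouse as a replicate block and 0 in a fit of the groups compared alone. In divided PD25 cells against non-bulge cells the count was 10, with differences of 0.89 to 4.82 for these genes within array set A. For divided against undivided cells it was 1 within set B at PD21 in place of 8, and 1 within set A at PD25 in place of 0. For divided cells of PD25 against PD21 it was 0 within set B in place of 7. For the difference of the division effect, the count of 1 became 0 with a pseudocount of 1, without the variance trend or within either array set, and 5 with a pseudocount of 64. It became 4 with quantile normalization, 2 over every probe set, 7 with the replicate block, 5 with the groups compared alone, 6 with array weights and 6 with the array set as a covariate. The block moved no other count of collagen genes by more than 1.5 times.

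Leaving out 1 array gave 7 to 9 collagen genes in undivided PD21 and 7 to 8 in undivided PD25 cells against non-bulge cells, 1 to 2 and 7 to 10 in divided cells of those ages, 7 to 8 for division at PD21 and 0 to 1 at PD25. It gave 3 to 7 for divided cells between the ages and 0 to 6 for the difference of the division effect. Dim signals in non-bulge cells limit the size of the largest fold changes. Within an array set some groups hold 1 array, which is assumed to vary like the others.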
